A study of Mus musculus with 20 samples.

Results

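The dual-specificity phosphatases (DUSPs) Dusp1, Dusp2, Dusp4, Dusp5, Dusp6, Dusp8, Dusp10 and Dusp16 and the kinase Map3k8 were examined in mouse liver after IL-1β. They were taken as the rows carrying these 9 gene symbols, which gave 10 of the 37681 rows in each table, since Dusp8 has 2 rows. RNA came from the livers of 10 male C57/BL6 mice (C57/B6J in the growth protocol) aged 12 weeks, of which 5 received IL-1β intraperitoneally at 20 µg/kg (ILB) and 5 received saline (UNT), each 4 hours before tissue was taken. The same RNA of each mouse was sequenced on Illumina and on Ion Torrent, and the reads were aligned with GSNAP, STAR or STAR + Bowtie2, so that there were 6 tables of 10 libraries. The values are counts per gene, and the Illumina STAR table is the main one here.

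IL-1β binds its receptor and activates the mitogen-activated protein kinases (MAPKs) ERK, JNK and p38 as well as NF-κB. A MAPK is switched on by a chain of a MAP3K and a MAP2K that ends in phosphorylation of a threonine and a tyrosine, and DUSPs switch it off by removing both phosphates. Many DUSP genes are themselves targets of MAPK signaling and so form feedback loops. Map3k8, also called Tpl2 or Cot, is the MAP3K that connects IL-1 receptors and Toll-like receptors to ERK.

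Of the 9 genes, 3 passed the test in the Illumina STAR table. Dusp8 was 8.77-fold higher with IL-1β, Dusp1 was 2.2-fold higher, and Dusp6 was 2.59-fold lower. The adjusted p was below 0.05 and the direction was the same for these 3 in all 6 tables. Map3k8 was higher in the 3 Ion Torrent tables and did not pass in the 3 Illumina tables. Changes were called with edgeR's quasi-likelihood test on 15578 genes with Benjamini-Hochberg adjustment at 0.05, which called 45.7% of them, 22.7% higher and 22.9% lower. The 2 of 9 members called higher and the 1 of 9 called lower stand beside these shares, so their number alone is no result about the members. In the other tables the share of genes called was 47.5% (Illumina GSNAP), 47.4% (Illumina STAR + Bowtie2), 42.1% (Ion Torrent STAR, 20.3% higher and 21.8% lower), 46.4% (Ion Torrent GSNAP) and 46.7% (Ion Torrent STAR + Bowtie2).

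Gene positions are those of Ensembl on NCBIM37 (mm9). Dusp1 lies at chr17:26642535-26645464 on the minus strand, Dusp2 at chr2:127161895-127164112 on the plus strand and Dusp4 at chr8:35870351-35882948 on the plus strand. Dusp5 lies at chr19:53603599-53616921 and Dusp6 at chr10:98725865-98730122, both on the plus strand. Dusp8 lies at chr7:149265395-149281748 on the minus strand, Dusp10 at chr1:185837181-185899515 on the plus strand and Dusp16 at chr6:134665488-134742643 on the minus strand. The second Dusp8 row, ENSMUSG00000043186, is a gene model of 1186 bases inside exon sequence of the first, ENSMUSG00000037887, on the same strand. It held 0 reads in every column and was not tested, and reads of the shared bases could have been affected by the counting.

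The promoters of the 3 genes called in every table are shown. The cAMP response element (CRE), the site of CREB and ATF family factors, is marked in them. This choice was made with the calls and the matches known, and a link between the site and the change was not tested. Promoter sequences are from RefSeq (GRCm38.p6), which matched 7 of the 9 symbols, Dusp4 and Map3k8 being the others. The bases before the RefSeq start were found once each in NCBIM37, where they lie at chr17:26645465-26645667 (Dusp1) and chr7:149281190-149281439 (Dusp8), both on the minus strand, and at chr10:98725615-98725864 (Dusp6) on the plus strand. Each window was 250 bases long, and 47 bases of Dusp1 next to the start were left out because Ensembl places them in an exon. The Dusp8 window lies inside the Ensembl span of the gene, whose minus-strand start is at 149281748, and outside its Ensembl exons. For Dusp8 the word promoter thus holds for the RefSeq start only. The CRE letters TGACGTCA are in capitals.
Dusp1 promoter: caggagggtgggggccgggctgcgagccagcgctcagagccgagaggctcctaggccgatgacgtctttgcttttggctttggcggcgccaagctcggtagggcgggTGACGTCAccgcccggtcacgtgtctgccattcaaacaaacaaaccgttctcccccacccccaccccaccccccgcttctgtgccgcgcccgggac
Dusp8 promoter: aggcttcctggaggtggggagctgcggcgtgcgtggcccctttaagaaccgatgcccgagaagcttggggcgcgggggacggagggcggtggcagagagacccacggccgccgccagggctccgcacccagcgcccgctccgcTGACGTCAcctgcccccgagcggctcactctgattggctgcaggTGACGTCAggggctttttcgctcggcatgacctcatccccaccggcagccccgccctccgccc
Dusp6 promoter: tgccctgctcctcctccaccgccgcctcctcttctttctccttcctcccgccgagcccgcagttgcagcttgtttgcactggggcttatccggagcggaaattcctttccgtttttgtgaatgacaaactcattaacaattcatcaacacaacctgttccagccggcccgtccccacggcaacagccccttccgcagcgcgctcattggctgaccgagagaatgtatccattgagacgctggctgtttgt

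Dusp1 held 1 CRE, starting 143 bases before the RefSeq start, and Dusp8 held 2, starting 107 and 63 bases before it. No exact CRE was in the 250 bases of Dusp2, Dusp5, Dusp6, Dusp10 or Dusp16. Of 32851 promoters of the same length, 1.55% held the CRE on either strand; the letters read the same on both. The shorter core TGACG, which every CRE contains, was searched on both strands and was in 17.8% of promoters, among them those of Dusp1, Dusp5, Dusp8 and Dusp16. The AP-1 site TGANTCA (6.75% of promoters) and the NF-κB site (3.9%) had no match in the 7. The CArG box, the site of serum response factor, was in 1.47% of promoters and had 2 matches in Dusp5, starting 82 and 72 bases before its start. Such matches describe letters in these windows and do not show that a factor was bound.

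Library totals were 10568530 to 11046256 in the Illumina STAR table and 12199528 to 12723326 in the Ion Torrent STAR table, with TMM factors (the scaling between libraries) of 0.9347 to 1.1036 and 0.9211 to 1.0979. The hepatocyte markers Alb, Apoa1, Ttr, Cps1, Hnf4a, Asgr1 and Cyp2e1 were detected in every library, which fits the labelled tissue. In the Illumina STAR table, 4 of these 7 fell and Hnf4a rose, and their summed level was 64627 to 77271 CPM with IL-1β and 89799 to 109080 CPM with saline, CPM being the count scaled by the TMM-adjusted library size. Of 10 neutrophil markers 6 were tested and all 6 were higher. The summed level of these 6 was 47.4 to 102 CPM with IL-1β and 1.87 to 5.91 CPM with saline. In this table Ngp and Ltf had 0 counts in every saline library, and Retnlg had 0 to 3. Only treated mice could thus bring these genes past the filter of 5 reads in 5 libraries here, which favoured finding them higher. Among the defining neutrophil genes, Ly6g, Ngp, Camp, Ltf and Mpo were at 0 in all saline libraries and Elane was at 0 in all IL-1β libraries. Of the tested markers of other cells, 1 rose and 3 fell of 8 for Kupffer cells and macrophages, 2 rose and 2 fell of 6 for endothelium, none rose and 3 fell of 5 for stellate cells, 2 rose of 4 for cholangiocytes, and 1 of 3 fell for T cells and for B cells. Beside these counts of markers stand the 22.7% higher and 22.9% lower over all genes tested. The counts alone are thus no result about a cell type. The part of these cell types in the members' values was not tested. In bulk liver, fewer cells of a type and less RNA per cell cannot be told apart.

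Among the phosphatases of the nucleus that act on JNK, p38 and ERK, Dusp1 was the most abundant. Dusp1, also called MKP-1, is an immediate-early gene that limits inflammatory signaling by p38 and JNK. Its Illumina STAR counts were 431, 256, 788, 589 and 660 in mice ILB_9577, ILB_9578, ILB_9579, ILB_9582 and ILB_9583. They were 154, 390, 323, 317 and 218 in mice UNT_9574, UNT_9575, UNT_9576, UNT_9580 and UNT_9584, an order of mice kept in all the lists of counts that follow. Mouse ILB_9578 lay inside the saline range, so that the groups overlapped, while the other 4 treated mice lay above every saline mouse. The mean level was 53.8 ± 21.0 CPM with IL-1β and 24.4 ± 7.97 CPM with saline (TMM-scaled, SD, n = 5 each), a log2 fold change of 1.14 ± 0.28 (SE, edgeR adjusted p = 0.00345). On Ion Torrent the counts were 575, 310, 953, 756 and 940 against 200, 560, 437, 411 and 304, with a log2 fold change of 1.05 (adjusted p = 0.0059). ILB_9578 was the lowest treated mouse, UNT_9574 the lowest saline mouse and UNT_9575 the highest saline mouse for Dusp1 in 6 of 6 tables. The same mice were thus low and high on both platforms. Under the rank test that the study used, run here on counts without TMM factors, Dusp1 did not pass. Its rank-test q was 0.113 on Illumina, where 38.1% of genes passed, and 0.12 on Ion Torrent, where 35.7% did.

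Dusp2, or PAC-1, is a nuclear phosphatase best known from activated lymphocytes and myeloid cells. It had 5, 3, 3, 2 and 4 counts with IL-1β and 2, 2, 2, 1 and 1 with saline. These counts are too few for a firm comparison, and the log2 fold change of 1.20 ± 0.45 did not pass (adjusted p = 0.0695). The Ion Torrent counts of 1, 4, 7, 7 and 5 against 9, 2, 3, 4 and 1 gave 0.49 ± 0.57 (adjusted p = 0.526), and 1.05 without UNT_9574. The GSNAP counts of the Illumina libraries gave 0.27 (adjusted p = 0.715), so that its value moved with the aligner and with a single mouse.

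Dusp4, or MKP-2, is the inducible nuclear relative of Dusp1. Its counts were 10, 13, 11, 13 and 15 with IL-1β and 6, 12, 6, 27 and 11 with saline. The treated mice lay inside the saline range, which was set by UNT_9580, the highest saline mouse for Dusp4 in 6 of 6 tables. The log2 fold change was 0.17 with a 95% interval of -0.65 to 0.99 on Illumina and -0.43 with an interval of -1.21 to 0.36 on Ion Torrent, neither past the threshold.

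Dusp5 is a nuclear phosphatase selective for ERK. Counts of 15, 10, 16, 11 and 8 with IL-1β overlapped with 6, 9, 6, 11 and 10 with saline. The log2 fold change was 0.68 ± 0.30 (adjusted p = 0.0783) in the Illumina STAR table and lay between 0.61 and 0.97 in the 6 tables. It passed in 1 of them, the Ion Torrent STAR + Bowtie2 table (0.97, adjusted p = 0.0496, beside 46.7% of all genes called there). In the Ion Torrent STAR table the saline mouse UNT_9574 held 22 counts against 3 to 11 in the other four, and without it the log2 fold change of 0.69 became 1.22 (adjusted p = 0.0299).

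**Figure D1:**
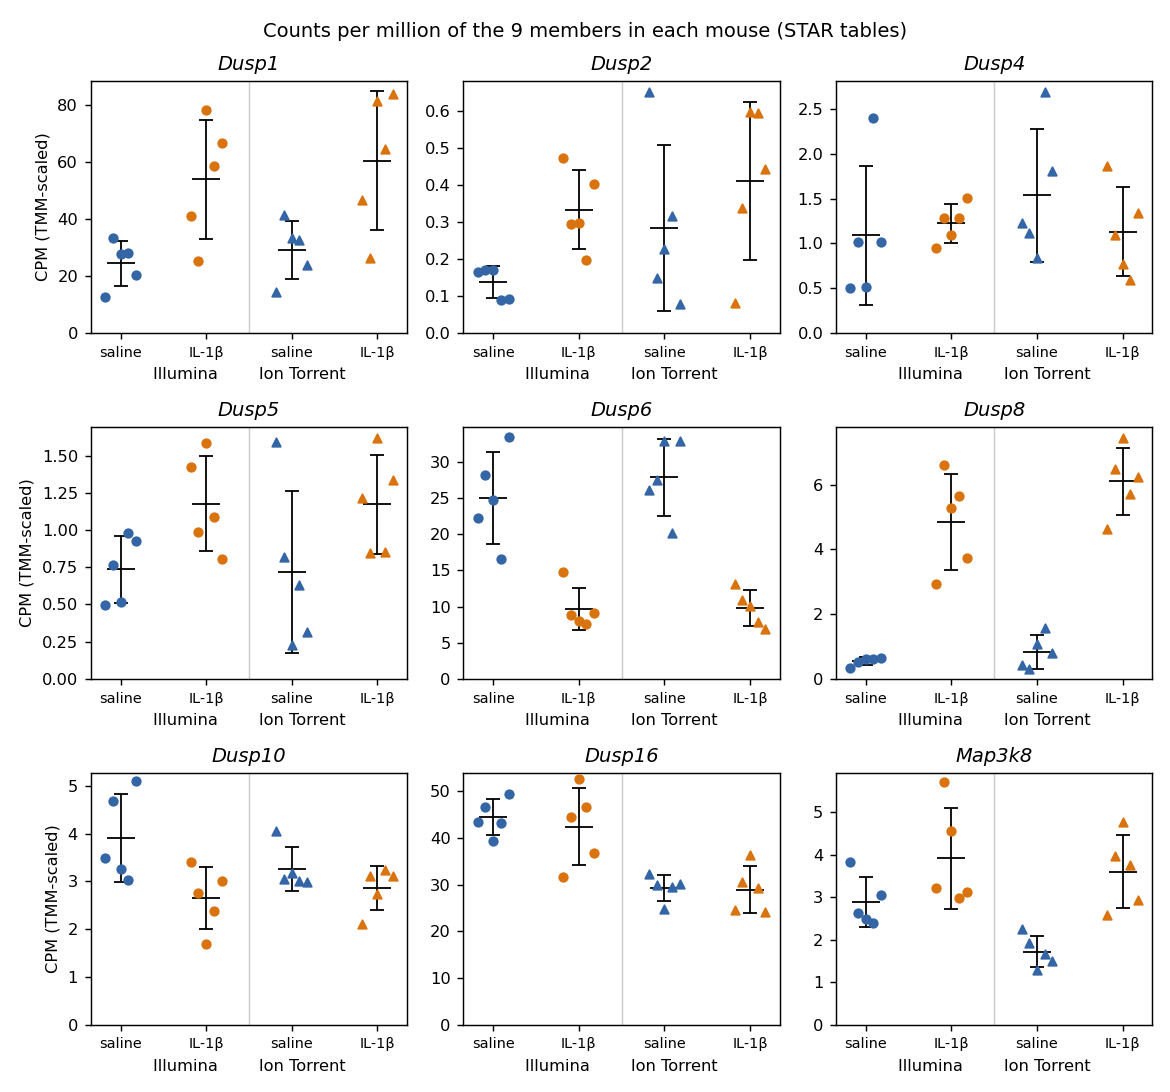
CPM (TMM-scaled, linear axes from 0) of the 9 genes in each mouse in the STAR tables, with circles for Illumina, triangles for Ion Torrent, blue for saline and orange for IL-1β; black bars show mean ± SD (n = 5). For Dusp6 and Dusp8 the treated and saline mice did not overlap on either platform, and for Map3k8 they overlapped only on Illumina.

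Dusp6, or MKP-3, is the cytoplasmic phosphatase selective for ERK and a common readout of ERK activity. Its counts were 156, 89, 81, 77 and 90 with IL-1β and 268, 331, 289, 186 and 361 with saline. Every treated mouse was below every saline mouse, a pattern that 21.4% of all tested genes showed in this direction (21.1% on Ion Torrent). Overlap between treated and saline mice, and its share over all genes, was judged on counts without TMM factors. In the Illumina STAR table these factors were 0.935 to 0.990 with IL-1β and 0.980 to 1.104 with saline. The mean level fell from 25.1 ± 6.36 to 9.66 ± 2.92 CPM, a log2 fold change of -1.37 ± 0.20 (edgeR adjusted p = 6.27e-05). The Ion Torrent counts of 162, 130, 118, 92 and 78 against 361, 371, 433, 254 and 420 gave -1.51 ± 0.18 (adjusted p = 3.28e-06). ILB_9577 was the highest treated mouse and UNT_9580 the lowest saline mouse in 6 of 6 tables, and the groups stayed apart in each of them, as for Dusp8. The share of all genes whose groups did not overlap in either direction was 33.6%, 35% and 34.6% in the Illumina tables with STAR, GSNAP and STAR + Bowtie2 and 31.3%, 33.8% and 33.7% in those of Ion Torrent.

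Of the phosphatases that act mainly on JNK and p38, Dusp8 rose, while Dusp10 and Dusp16 did not pass the test. Dusp8 had the greatest fold change of the 9 genes. Its counts were 31, 67, 53, 57 and 37 with IL-1β and 4, 6, 7, 7 and 7 with saline. The groups did not overlap, as for 12.1% of all tested genes in this direction. The mean level was 4.84 ± 1.48 CPM against 0.543 ± 0.129 CPM, a log2 fold change of 3.13 ± 0.29 (95% interval 2.52 to 3.74, adjusted p = 5.86e-07). On Ion Torrent, 57, 77, 87, 67 and 70 counts stood against 6, 4, 14, 20 and 10, a log2 fold change of 2.87 ± 0.32 (adjusted p = 1.8e-06). ILB_9577 was the lowest treated mouse in 6 of 6 tables, and the log2 fold change ranged from 2.87 to 3.53 over the tables.

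Dusp10, or MKP-5, dephosphorylates JNK and p38 and is known as a brake on innate immune cytokine production. Counts of 36, 28, 17, 24 and 30 with IL-1β overlapped with 42, 55, 38, 34 and 55 with saline through ILB_9577 and UNT_9580. The log2 fold change of -0.56 ± 0.22 just missed the threshold (adjusted p = 0.0521, 95% interval -1.03 to -0.084). It was negative in all 6 tables, between -0.56 and -0.19, and passed by edgeR in none. By the rank test it passed in the Ion Torrent GSNAP table (q = 0.0413, beside 38.8% of genes) and in the Ion Torrent STAR + Bowtie2 table (q = 0.0304, beside 38.6%). In the latter the groups did not overlap, beside 33.7% of all genes in either direction. Both the rank test and the overlap used counts without TMM factors. With these factors, edgeR gave adjusted p of 0.143 and 0.121 in the same 2 tables. The call on Illumina turned on single mice, since without ILB_9577, UNT_9576 or UNT_9580 the adjusted p was 0.0325, 0.0488 or 0.0361.

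Dusp16, or MKP-7, shuttles between nucleus and cytoplasm and prefers JNK and p38. It had 333, 450, 529, 470 and 366 counts with IL-1β and 522, 548, 457, 485 and 532 with saline. Its log2 fold change of -0.066 had the narrowest interval of the 9 genes, -0.34 to 0.21, and on Ion Torrent it was -0.019 with an interval of -0.29 to 0.25. Changes of the size seen for Dusp1, Dusp6 or Dusp8 lay outside both intervals.

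**Figure D2:**
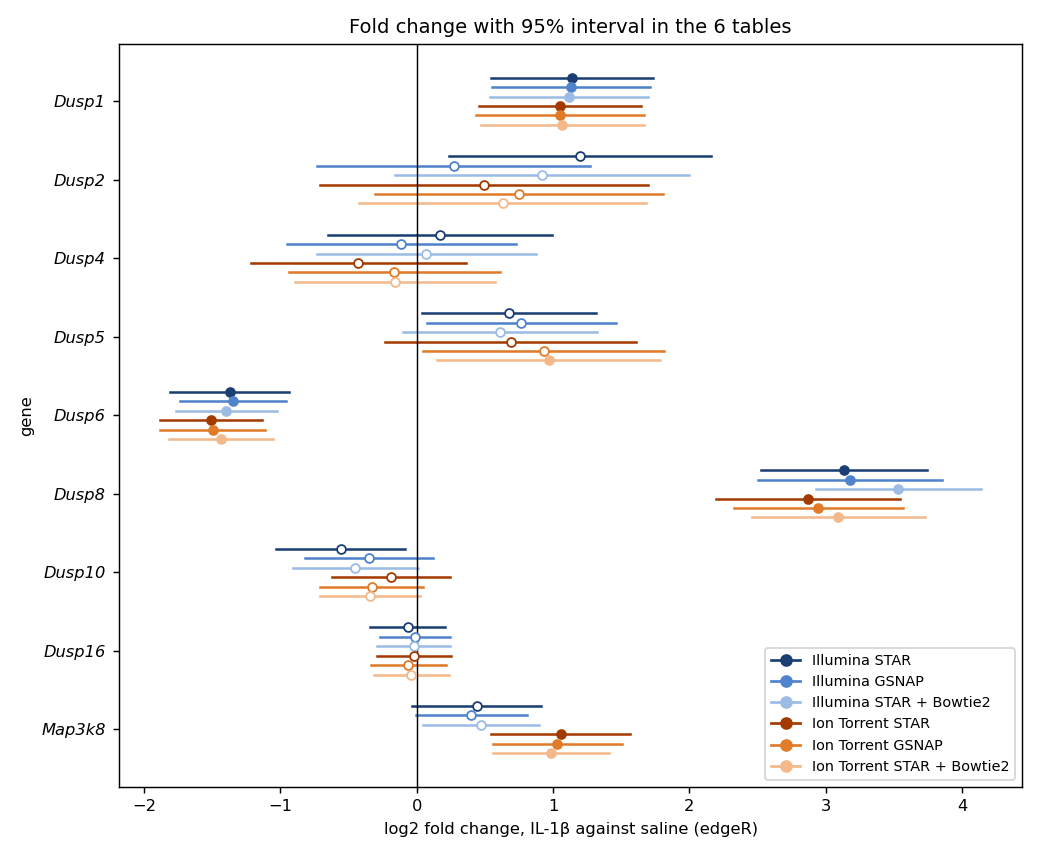
Log2 fold change of IL-1β against saline (edgeR, x axis) with its 95% interval for the 9 genes in the 6 tables; filled points passed the adjusted p of 0.05 and open points did not. Dusp1, Dusp6 and Dusp8 passed in all 6 tables, and Map3k8 passed in the 3 Ion Torrent tables, at 0.99 to 1.06, and not in the Illumina tables, at 0.40 to 0.47.

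Map3k8 is the only kinase of the 9 and stands upstream of ERK, whereas the DUSPs stand downstream. Its Illumina counts were 34, 58, 46, 30 and 31 with IL-1β and 46, 31, 29, 27 and 33 with saline. The groups overlapped, with UNT_9574 above 3 of the 5 treated mice, and the log2 fold change of 0.44 ± 0.22 did not pass (adjusted p = 0.124, 95% interval -0.035 to 0.92). It was 0.27 without ILB_9578, the highest treated mouse, and up to 0.56 with another mouse left out. On Ion Torrent the counts were 32, 47, 56, 44 and 33 with IL-1β and 31, 26, 17, 21 and 19 with saline. Here every treated mouse was above every saline mouse, as for 10.2% of all tested genes, and the log2 fold change was 1.06 ± 0.24 (edgeR adjusted p = 0.00188, beside 42.1% of all genes called). The other aligners gave the same division, with 0.40 (GSNAP) and 0.47 (STAR + Bowtie2) on Illumina at adjusted p of 0.0966 and 0.0653. On Ion Torrent they gave 1.03 and 0.99 at adjusted p of 0.00137 and 0.000812, in tables where 46.4% and 46.7% of genes were called.

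Whether the treatment effect differed between platforms was tested by a platform-by-treatment term in edgeR, fitted to the 20 STAR libraries with the mouse as a block. For Map3k8 the log2 fold change was 0.64 ± 0.24 greater on Ion Torrent (95% interval 0.14 to 1.13, unadjusted p = 0.0142), but the adjusted p was 0.69. None of the 9 genes passed after adjustment, beside 0.00642% of all genes, and Map3k8 alone had an unadjusted p below 0.05, beside 7% of all genes. The passing of Map3k8 on one platform and not on the other is therefore not shown to be a difference between them. For Dusp1 the term was -0.073 with an interval of -0.27 to 0.12, and for Dusp16 0.066 with an interval of -0.13 to 0.27, narrower than for the other 7 genes. For Dusp2, the member with the fewest counts, the interval reached from -2.42 to 1.04.

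**Figure D3:**
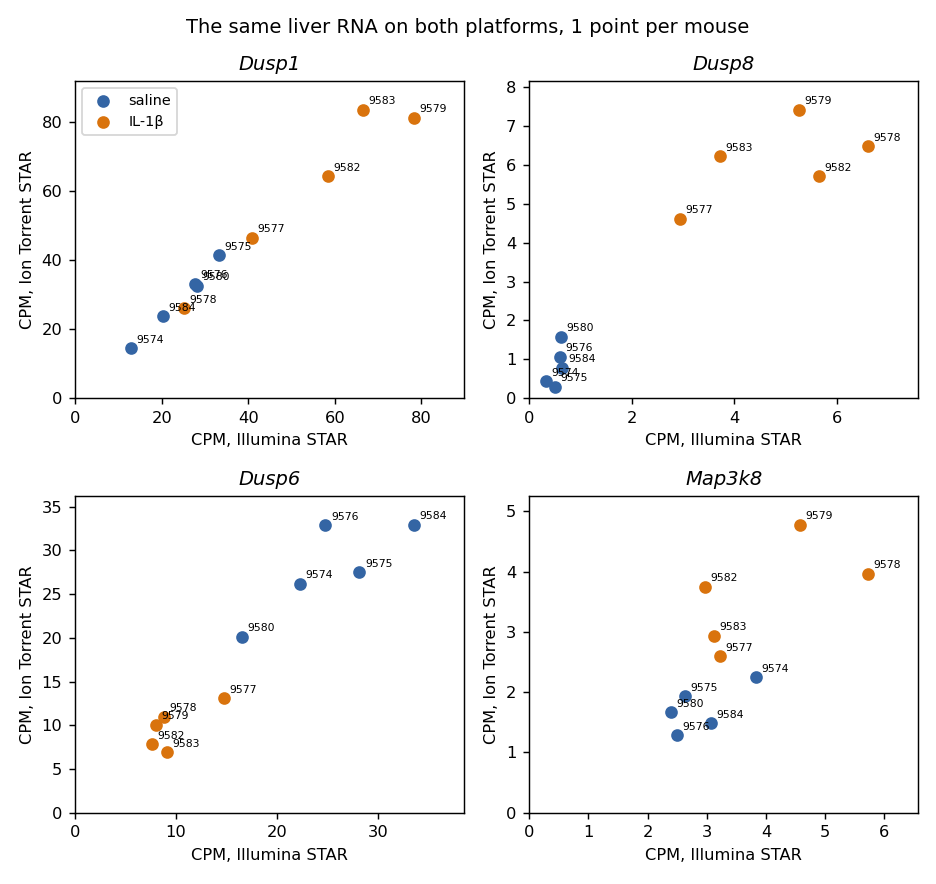
CPM (TMM-scaled) of Dusp1, Dusp8, Dusp6 and Map3k8 in the STAR tables, with the Illumina value of each mouse across and its Ion Torrent value upward, 1 point per mouse with its number, blue for saline and orange for IL-1β. Mouse ILB_9578 lay among the saline mice for Dusp1 on both axes, and the Map3k8 groups were separate on the Ion Torrent axis alone.

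To compare levels between genes, counts were divided by the exon length of each gene and by the library total, without TMM factors. In saline livers of the Illumina STAR table the order was Dusp1 (9.46 ± 3.13 CPM per kilobase, SD, n = 5), Dusp6 (9.35 ± 2.17), Dusp16 (6.05 ± 0.45), Dusp10 (1.34 ± 0.29), Map3k8 (0.67 ± 0.16), Dusp4 (0.41 ± 0.29), Dusp5 (0.31 ± 0.084), Dusp8 (0.12 ± 0.024) and Dusp2 (0.073 ± 0.025). Along this order the ranges over mice overlapped between Dusp1 and Dusp6, Dusp6 and Dusp16, Map3k8 and Dusp4, Dusp4 and Dusp5, and Dusp8 and Dusp2. Within mice, Dusp6 was nevertheless above Dusp16 in 5 of 5, while Dusp1 was above Dusp6 in 3 of 5 and Dusp4 above Dusp5 in 2 of 5. The ranges were apart between Dusp16 and Dusp10, Dusp10 and Map3k8, and Dusp5 and Dusp8. With IL-1β the order became Dusp1 (19.0 ± 7.19), Dusp16 (5.29 ± 0.98), Dusp6 (3.32 ± 1.09), Dusp8 (0.95 ± 0.29), Dusp10 (0.84 ± 0.22), Map3k8 (0.83 ± 0.25), Dusp5 (0.46 ± 0.13), Dusp4 (0.43 ± 0.068) and Dusp2 (0.16 ± 0.053). Dusp8 thus moved from the eighth to the fourth place, where its range overlapped with those of Dusp10 and Map3k8. The ranges of Dusp10 and Map3k8, of Dusp16 and Dusp6 and of Dusp5 and Dusp4 also overlapped, and those of the other neighbours were apart. Although its fold change was the greatest, its level stayed well below that of Dusp1 in every treated mouse.

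The 8 phosphatases summed to 27.11 ± 4.001 CPM per kilobase with saline and 30.5 ± 6.97 with IL-1β, and the ranges of 22.17 to 32.98 and 20.7 to 39.3 overlapped. Within this sum the share of Dusp1 was 34.4 ± 8.78% with saline and 60.5 ± 11.2% with IL-1β. The share of Dusp6 was 34.5 ± 6.94% and 11.6 ± 5.18%, while that of Dusp8 was 0.429 ± 0.084% and 3.34 ± 1.73%. Dusp16 held 22.7 ± 3.48% and 18.04 ± 5.24%, so that its mean share was below that of Dusp6 with saline and above it with IL-1β. On Ion Torrent the shares of Dusp1 were 39.3% and 65.6%, those of Dusp6 were 37.5% and 11.7%, and those of Dusp16 were 14.6% and 12.2%. In both tables Dusp1 and Dusp6 thus had similar shares in saline livers, and Dusp1 made up more than any other member in treated livers. These shares were not tested, since they hold the same counts as the fold changes above.

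**Figure D4:**
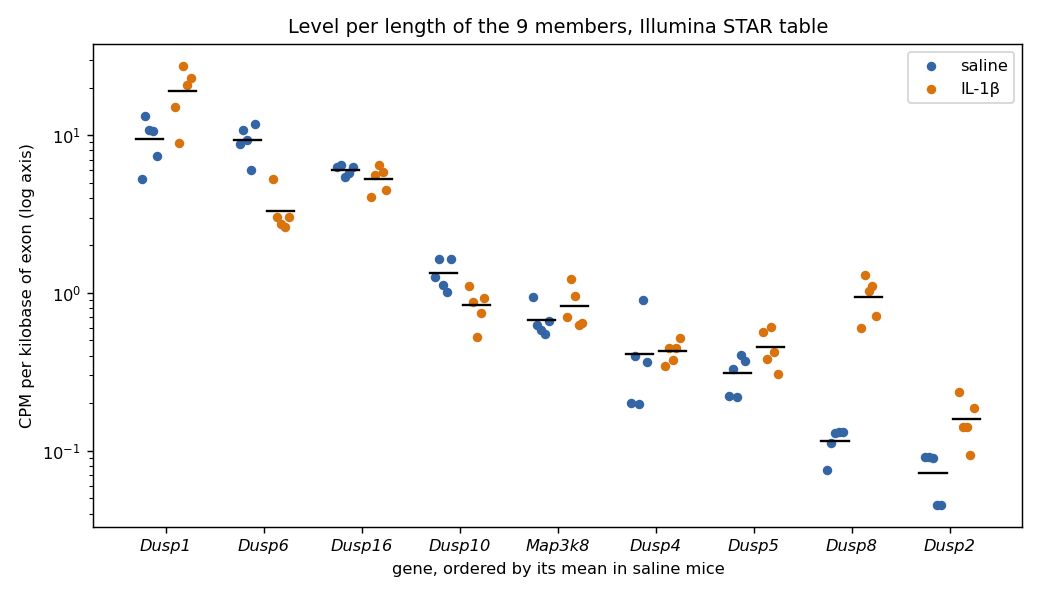
Level per length of the 9 genes (CPM per kilobase of exon, log axis) in the Illumina STAR table, ordered by the saline mean; each point is a mouse, blue for saline and orange for IL-1β, and black lines are means. Dusp1, Dusp6 and Dusp16 were the most abundant in both groups, and Dusp8 moved from near the bottom to the level of Dusp10 and Map3k8.

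The rest of the MAPK pathway was described by 8 lists of 91 genes, of which 76 were tested in the Illumina STAR table. There 21 rose and 17 fell, and the median log2 fold change was 0.050 beside 0 over all genes tested. The 22.7% higher and 22.9% lower over all genes are the background for these counts and for those of the single lists below, and the totals lie near it. Other DUSPs had 1 gene higher and 3 lower of 9 tested. Dusp23, a small atypical phosphatase, rose (log2 fold change 0.64), but did not pass on Ion Torrent (0.30, adjusted p = 0.0828). The atypical phosphatases Dusp28 (-0.75) and Dusp19 (-0.67) fell. The values of the 9 tested lay between -0.75 and 0.77, inside those of Dusp1 and Dusp6.

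Among the other MAP3Ks, 7 of 17 tested rose and 2 fell, with a median of 0.15. Map3k6 rose by 2.63 and Map3k14, the NF-κB-inducing kinase NIK, by 2.08 on the log2 scale. For both, the groups did not overlap, as for 12.1% of all tested genes in this direction. Map3k13 (-1.47) and Map3k4 (-0.43) fell. The 2 genes known as partners that hold and stabilize the Map3k8 protein both rose, Tnip2 (ABIN-2) by 1.36 and Nfkb1, which encodes p105, by 0.54. Map3k8 itself, at 0.44, did not pass in this table, and its difference from the partners was not tested.

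The MAP2Ks had 2 genes higher and 2 lower of 7. Map2k6, an activator of p38, fell from a mean of 100.0 to 7.0 counts (log2 fold change -3.63 ± 0.26, adjusted p = 5.65e-08), and Map2k5 fell by 0.54. Map2k4 (0.46) and Map2k7 (0.43), the activators of JNK, rose, though Map2k7 did not pass on Ion Torrent (0.29, adjusted p = 0.11). Of the MAPKs, 3 of 12 rose and 3 fell, with Mapk13 (1.65) and Mapk6 (0.85) higher and Mapk15 (-1.31) and Mapk3, which encodes ERK1, (-0.58) lower. The value of Mapk13 rests on few counts, a mean of 5.8 with IL-1β and 2.0 with saline. Among the kinases that MAPKs activate, 3 of 10 rose and 2 fell. Mapkapk2, the main p38 effector kinase, rose from a mean of 544.0 to 1113 counts (log2 fold change 1.21), and Rps6ka3 rose by 0.74. Rps6ka1 (-1.20) fell, and so did Rps6ka5 (-0.82), which on Ion Torrent was -0.055 and did not pass (adjusted p = 0.976).

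The genes known as feedback regulators or outputs of ERK had 1 gene higher and 4 lower of 13, with a median of -0.47. The median was closer to 0 in the other 5 tables. In the Ion Torrent STAR table it was -0.25, with 1 gene higher and 3 lower, beside 20.3% and 21.8% of all genes. Spry4 (-1.497 ± 0.25, adjusted p = 0.00018) and Spred2 (-1.45 ± 0.20, adjusted p = 3.25e-05), both inhibitors of the Ras to ERK step, fell beside Dusp6. Ier3, an early response gene that sustains ERK activity, rose by 1.77. Of the other phosphatases that act on MAPKs, 2 of 6 rose and 1 fell, with Ppp2cb at 1.11, Ppp2ca at 0.29 and Ppm1a at -0.46.

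**Figure D5:**
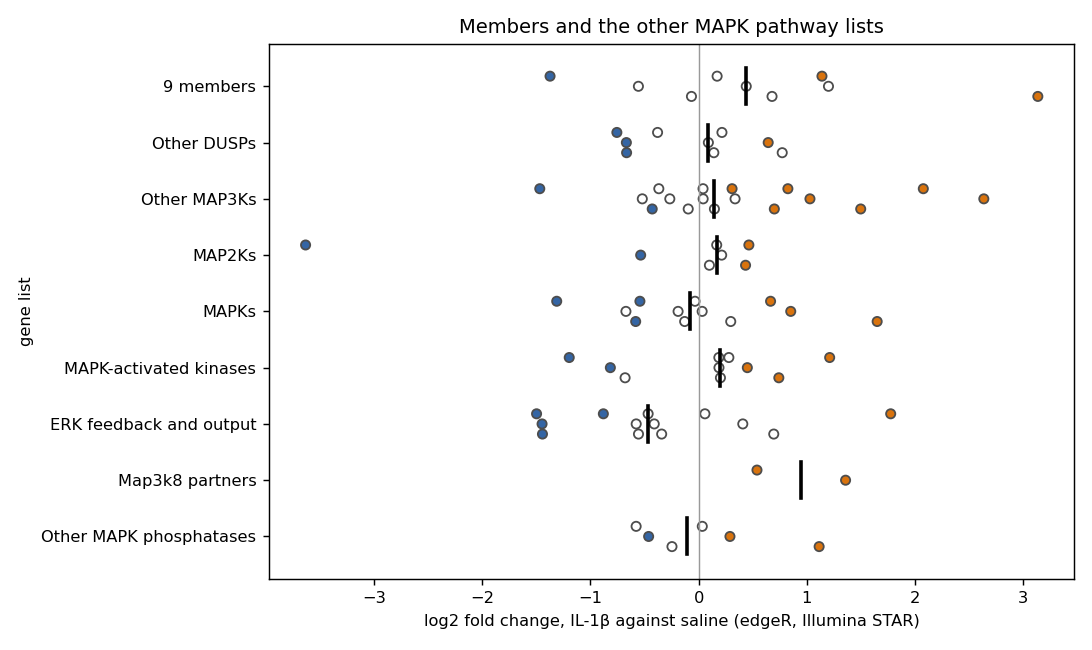
Log2 fold change of IL-1β against saline (edgeR, Illumina STAR, x axis) for the 9 genes and the tested genes of 8 MAPK pathway lists, 1 point per gene; orange points rose and blue points fell at an adjusted p below 0.05, open points did not pass, and black bars are medians. Dusp8 has the highest value shown and Map2k6 the lowest, and the ERK feedback list has its median at -0.47.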

How the data were processed

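Liver RNA of 10 mice was sequenced on both platforms. The values are gene counts deposited by the authors, who aligned reads to mm9 with GSNAP, STAR 2.5.1b or STAR with Bowtie2 2.2.9, removed rRNA and mitochondrial reads and resampled the libraries of each table to the smallest with PORT, against Ensembl models. Resampling makes depth alike within a table, so treatments were compared within a table. All 60 count columns were used. Illumina libraries were paired-end, and whether a count is a pair or a read is not given in the tables. Each mouse is 1 animal and 1 replicate.

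The members and gene lists were chosen with earlier results of these data known. A gene was tested if any table gave it 5 or more reads in 5 or more libraries (15578 genes). edgeR 4.0.16 (R 4.3.3) fitted quasi-likelihood models with TMM factors, with Benjamini-Hochberg adjustment over all genes tested and 95% intervals from the same fit. The platform-by-treatment term was fitted with the mouse as a replicate block. Mouse numbers in the labels pair the libraries of the 2 platforms, and deviations from the group mean correlated at 0.543 to 0.700 for 9 mice and 0.238 for UNT_9584. The calls assume that mice vary as in the fit, and low counts (Dusp2, Dusp4, Dusp5, and Dusp8 with saline) limit precision. Alternatives were RLE or no scaling factors, DESeq2 1.42.0, limma-voom (3.58.1), the rank test of the study, other filters, the other tables and each mouse left out. Leaving out mice in the Ion Torrent table was added after the data were examined. Each fit was tested on simulated counts first.

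Named genes are the 9 members, from each list up to 2 with the highest and 2 with the lowest log2 fold change among those past the threshold, and the 3 genes whose residual pattern over mice was most like Dusp1 and Map3k8. The levels per length use the exon length summed over all Ensembl transcripts of a gene on NCBIM37. Figures were drawn with matplotlib 3.10.9.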

Additional observations from a re-analysis of the deposited data

Results flagged for a closer look

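Within each treatment group of 5 mice, the highest and lowest CPM of each of the 9 genes in the STAR tables were compared with the others by Dixon's ratio at the 95% level. This marked 3 of 36 groups, and chance marks about 1 in 20. The saline mouse UNT_9580 had 2.40 CPM of Dusp4 on Illumina, where the other 4 saline mice had 0.499 to 1.02. The treated mouse ILB_9577 had 14.8 CPM of Dusp6 on Illumina, where the other 4 treated mice had 7.63 to 9.06. The saline mouse UNT_9574 had 4.06 CPM of Dusp10 on Ion Torrent, where the other 4 saline mice had 2.98 to 3.19. UNT_9580 and ILB_9577 held the same places in all 6 tables.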

How the results depend on the processing

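Dusp1, Dusp6 and Dusp8 kept their direction under every scaling, test, filter and table and with any mouse left out of the Illumina STAR table, at log2 fold changes of 0.958 to 1.32, -1.58 to -1.25 and 2.87 to 3.53. With any mouse left out of the Ion Torrent STAR table they were 0.881 to 1.27, -1.64 to -1.40 and 2.65 to 3.25. Under these alternatives 1 call of the 3 was lost, that of Dusp1 by the rank test. The members higher with IL-1β numbered 2, with 1 by the rank test, 3 by limma-voom, 3 in the Ion Torrent STAR and GSNAP tables and 4 in the Ion Torrent STAR + Bowtie2 table, and 2 under the other alternatives and with any mouse left out. The members lower numbered 1, and 2 with RLE factors, without scaling factors, with DESeq2 and with a filter on the same table, where Dusp10 passed at adjusted p of 0.0497, 0.021, 0.0451 and 0.0453. With a mouse left out they numbered 1 to 2. limma-voom also called Dusp2 (1.06, adjusted p = 0.00899). Without scaling factors the median over 11929 genes was -0.12 in place of 0.0047. Dusp4 turned negative in the Illumina GSNAP table (-0.11) and the Ion Torrent STAR (-0.43), GSNAP (-0.16) and STAR + Bowtie2 (-0.16) tables, and was -0.025 to 0.68 with a mouse left out. Dusp16 was -0.16 to 0.023 on Illumina and -0.11 to 0.053 on Ion Torrent with a mouse left out; the cause was not tested. On Ion Torrent, Map3k8 passed with any mouse left out (0.93 to 1.17), and 3 to 4 members were higher and 1 lower. The platform-by-treatment fit without the replicate block called 0 members, as did the paired fit with the replicate block, the other aligners and the fits with a mouse left out. ILB and UNT are different mice, so no pairing applies between them. Pathway genes higher numbered 15 to 22 and lower 15 to 21. Low counts limit Dusp2, Dusp4 and Dusp5, whose intervals are wide. The saline counts of Dusp8 were also low, 4 to 7 in the Illumina STAR table, which limits how exactly its fold is known.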

Other observations

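After the mean of each treatment group was subtracted, the residual log2 CPM over the 10 mice in the Illumina STAR table was compared between each of Dusp1 and Map3k8 and 9277 and 9278 other genes averaging 50 or more counts, as a description. The 10 mice are the same for every gene, and with so many genes compared high values arise readily. Most like Dusp1 were Got2 (Pearson r 0.93, Spearman rho 0.70), Naf1 (0.92, 0.90) and 1700017B05Rik (0.91, 0.88). Without the 2 mice farthest from the median of Dusp1, their r was 0.73, 0.91 and 0.95. In the Ion Torrent libraries of the same mice r was 0.87, -0.066 and 0.77, so that Naf1 did not keep its likeness. Most like Map3k8 were Taf9 (r 0.95, rho 0.78), Cnksr3 (0.92, 0.93) and Aig1 (0.90, 0.85). Without the 2 mice farthest from the median of Map3k8, their r was 0.85, 0.81 and 0.91. On Ion Torrent they fell to 0.35, -0.26 and 0.20, so that none of these 3 kept its likeness.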
